A study of Danio rerio with 8 samples.

Results

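The nuclear mRNAs whose fragments were well represented in small RNA libraries of zebrafish larvae are described here. Members were selected on their counts alone: a gene was taken when its biotype was protein coding, its symbol did not start with mt- and it had at least 10 counts in at least 4 of the 8 libraries. The rule was met by 207 of the 32520 genes of the table, or 207 of its 25419 nuclear protein coding genes, of which 16257 had at least 1 count. Since the rule used the counts themselves, the level of the members is a description and not a finding.

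S+ larvae came from AB wildtype males of 12 months that had gone through a 21-day chronic stress protocol, and S- larvae from males of the same strain and age that were left in their tanks. Males of both groups were crossed 1 to 1 with undisturbed control females, and no larva was stressed itself. Each library was made from a pool of 50 whole larvae at 7 days post fertilization (dpf), 4 libraries per group, and the progeny of each crossing counted as a biological replicate. The study looked for noncoding RNAs altered by the stress of the father, and the nuclear mRNAs were not its target.

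A small RNA library is built to hold miRNAs and other short RNAs. Reads that fall on an mRNA in such a library come from pieces of the transcript, which can be products of decay, reads of a short RNA encoded inside the gene, or reads of another RNA that is mapped to the gene. Abundant mRNAs of a larva include those of the ribosome and of translation in every cell, the crystallins that fill the fibre cells of the lens, the contractile proteins of muscle, the digestive enzymes of the exocrine pancreas, the keratins of the skin and the apolipoproteins that carry lipid out of the yolk, liver and gut. Many snoRNAs, the guides for chemical modification of rRNA, lie in introns of ribosomal protein and translation genes, which are then called host genes. In whole larvae, fewer cells of a type and less RNA per cell cannot be told apart.

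The members made up a small part of each library. They took 0.325%, 0.260%, 0.381% and 0.328% of the counts in the S+ libraries 1 to 4, against 0.303%, 0.609%, 0.535% and 0.274% in the S- libraries 1 to 4. All nuclear protein coding genes together took 0.663% ± 0.102 of the counts in S+ and 0.731% ± 0.256 in S- (SD, n = 4 each), and the groups overlapped. Library totals ran from 3492945 to 4943297 counts. The counts behind a single member were therefore few. The median member had a mean of 18.5 counts per library, 112 members had a mean under 20, and 17 had a mean above 100. All 8 libraries reached 10 counts for 77 members.

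The edge of the rule cut through a continuum of counts. Exactly 10 counts in the fourth highest library were found for 23 members, and 26 nuclear genes outside had 9. Just inside, ppiaa, a cyclophilin that isomerizes proline bonds, had 11, 8, 11 and 10 counts in S+ against 4, 10, 2 and 0 in S-. tet1, an enzyme that oxidizes methylated cytosine, had 13, 10, 12 and 4 counts in S+ against 12, 7, 1 and 5 in S-. Just outside, ybx1, an RNA and DNA binding protein, had 15, 25, 22 and 9 counts in S+ against 2, 8, 9 and 4 in S-, while hspa5, a chaperone of the endoplasmic reticulum, had 7, 9, 9 and 22 in S+ against 5, 15, 6 and 15 in S-. The rule also left out genes with more counts in total that were concentrated in few libraries. The parvalbumin gene pvalb2, a calcium buffer of fast muscle, had 1, 3, 4 and 21 counts in S+ against 0, 124, 49 and 7 in S-.

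Not every member was independent of the others. AL935186.7 and AL935186.9 had identical counts in all 8 libraries, as did the pair of identifiers named si:dkeyp-13d11.1, and the symbol crygm2d17 stood on a pair of identifiers with different counts. The authors' counting divided reads with several possible origins among genes, so values of near-identical genes, such as the crystallins, the titins and the AL935186 genes, are uncertain. The same holds for genes that overlap another gene.

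Annotations disagreed on whether the leading member of the set is an mRNA. zgc:158463 (ENSDARG00000089382) is protein coding in the table, and the RefSeq annotation of assembly GRCz12tu gives it as an rRNA gene. RefSeq matched 191 of the 207 members by symbol or identifier, and called 188 of them protein coding and 1 rRNA. The remaining matched members, si:dkey-239h2.3 and si:ch211-255g12.6, were given as long noncoding RNA genes. No match was made for 16 members, which include the clone-named genes AL935186.7, BX548011.2 and CT583728.24.

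zgc:158463 had 2325, 2314, 2130 and 2467 counts in the S+ libraries, against 3522, 12124, 9621 and 2481 in the S- libraries. In counts, all 4 S+ libraries lay close together and below the lowest S- library, with S+ 4 only just under S- 4. S- 2 and S- 3 stood far above the other 6. It supplied 17.5% ± 3.72 of the member counts in S+ and 37.9% ± 11.8 in S- (SD, n = 4 each). In CPM, the counts relative to the size of the library and not divided by gene length (scaled with TMM factors), it stood at 574, 556, 409.7 and 718 in S+ against 963, 2681, 2447 and 759 in S-. On this scale the S+ libraries were further apart, and S+ 4 at 718 was near S- 4 at 759. The fit gave a log2 fold change of -1.43 (SE 0.403, 95% interval -2.33 to -0.53, adjusted p = 0.166 by limma), which did not pass the threshold. Without S- 2 and S- 3 it was -0.68 (SE 0.229, adjusted p = 0.198). Genes with an rRNA biotype, summed, reached 687, 380.3, 507 and 507 CPM in S+ against 755, 764, 1113 and 657 CPM in S-, so that the groups overlapped. The part of rRNA in the counts of zgc:158463 was not tested.

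**Figure D1:**
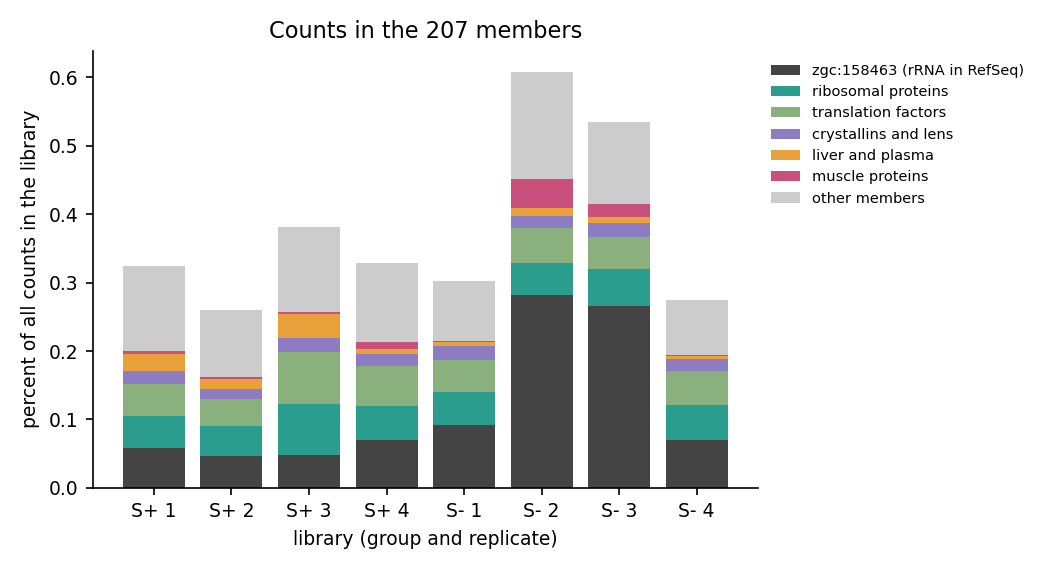
Stacked bars give the percent of all counts of a library that fell on the 207 members, for the S+ libraries 1 to 4 and then the S- libraries 1 to 4, divided into zgc:158463, 5 groups of genes and all other members. The bars of S- 2 (0.609%) and S- 3 (0.535%) are the highest, and the segment of zgc:158463 is the largest in both.

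The stacked shares show that the higher bars of S- 2 and S- 3 held the most counts of zgc:158463. Apart from zgc:158463, the members summed to 2649, 2533, 2871 and 2620 CPM in the S+ libraries, against 2230.4, 3108, 2492 and 2200.4 CPM in the S- libraries. These sums averaged 2668 ± 144 CPM in S+ and 2508 ± 421 CPM in S- (SD, n = 4 each), and the groups overlapped.

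Libraries S- 2 and S- 3 also stood apart from S- 1 and S- 4 in the genes of muscle. S+ 4 was the highest S+ library for most muscle members and the lowest for most liver and plasma members. The exceptions among the latter were apoa4b.2 and apoa1b. The values of the liver, muscle, ribosomal and digestive lists are given below with and without these libraries. Of 32 tissue markers looked up in the whole table, 8 were members and 2, both of red cells (hbae1.1 and alas2), were at 0 in all libraries. Over all 8 libraries, the neural marker elavl3 had 43 counts, snap25a had 9, and gap43, mbpa and gfap had 2 each. Of 9 mRNAs followed by qPCR in such larvae, such as col8a1a and map1b, none was a member, and the highest count of any of them in a library was 3.

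The question of the design was whether larvae of stressed fathers differed from larvae of control fathers. limma was fitted to the 651 genes that passed its count filter, 192 of them members. The other 15 members fell below that filter. Calls required an adjusted p under 0.05 together with a log2 fold change beyond 0.58 in either direction. No member was called, and 0.307% of all genes tested were. At an unadjusted p below 0.05, 14 members (7.29%) were higher in S+ and 6 (3.12%) lower, beside 7.22% and 5.22% of all genes tested. The CPM of the groups did not overlap for 8 members that were higher in S+ (4.17%, beside 4.76% of all genes) and for 2 that were lower (1.04%, beside 2.92%). These shares were near those over all genes or below them. Of the 14 higher members, 5 had at least 10 counts in at most 1 S- library. Of the 6 lower members, 1 had at least 10 counts in at most 1 S+ library. Such members entered the rule only or nearly through the group where they were high, so the shares cannot be read as results. Among the 8 higher members without overlap, fabp1b.1, apoa4b.2 and tmsb4x entered in that way. edgeR and limma-trend called 0 members as well, with 17 members higher and 5 lower at an unadjusted p below 0.05 for edgeR and 14 higher and 5 lower for limma-trend. DESeq2 on the same genes called 9 members (4.69%), beside 4.61% of all genes, so the call depended on the tool. With the replicate number as a block limma called 2 members (1.04%, beside 1.38% of all genes), zanl and apobb.1, and without a count filter it called 10 of 207 (4.83%, beside 0.431% of all genes, most of which had few counts).

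The median log2 fold change was 0.03 over the members, with quartiles at -0.27 and 0.51, and -0.02 over all genes tested. It was positive for 100 members and negative for 92. The standard error of a log2 fold change had a median of 0.443 for the members and 0.25 for the other genes tested, so the members were measured less precisely. Between libraries of the same group, the variance of a member's counts was 3.69 times its counting expectation at the median. This ratio was under 2 for 58 members, whose spread was near that of counting alone, and above 10 for 37. Leaving out S- 2 and S- 3 together moved the median of the members to 0.35.

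**Figure D2:**
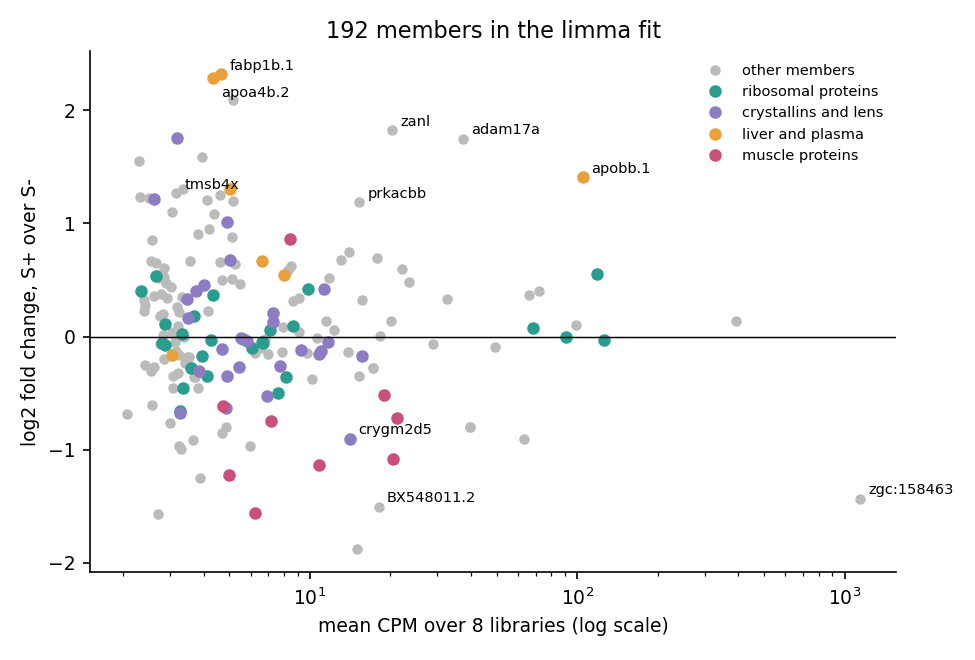
Each point is a member in the limma fit, with its mean CPM over the 8 libraries on a log axis and its log2 fold change of S+ over S- on the vertical axis; the members with the smallest p are named. The 192 points lie on both sides of 0, from -1.87 (CT583728.24) to 2.32 (fabp1b.1), and none passed the threshold.

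The plot of fold change against level shows that wide fold changes stood mostly at low CPM, with adam17a, apobb.1, zanl and zgc:158463 as exceptions at higher levels. The 10 members with the smallest p are given next by what they do.

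The apolipoproteins and fatty acid binding proteins held 3 of these 10. apobb.1 (ENSDARG00000022767) encodes apolipoprotein B, the scaffold of the particles that carry lipid out of the yolk, liver and gut. It had 206, 128, 219.9 and 62.9 CPM in S+ against 44.6, 75.4, 66.1 and 34 CPM in S-. The S+ libraries 1 to 3 were above every S- library, and S+ 4 lay among them. In the fit, the log2 fold change was 1.41 (SE 0.429, 95% interval 0.45 to 2.37, adjusted p = 0.195).

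fabp1b.1 (ENSDARG00000059227), a fatty acid binding protein of the liver type, had 7.66, 6.48, 12.9 and 4.37 CPM in S+ against 2.19, 1.55, 1.53 and 0.612 CPM in S-. Every S+ library was above every S- library, on 15 to 67 counts in S+ and 2 to 8 counts in S-. It was also a member only through its S+ libraries, all of which had at least 10 counts while no S- library did, so it could hardly enter without a difference. Its log2 fold change was 2.32 (SE 0.592, 95% interval 1.00 to 3.64, adjusted p = 0.160).

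apoa4b.2 (ENSDARG00000020866), an apolipoprotein A-IV gene, had 6.17, 3.84, 14.2 and 5.24 CPM in S+ against 1.09, 2.21, 0.763 and 1.22 CPM in S-. The groups did not overlap, and S+ 3 held 48.1% of its counts. At least 10 counts were reached in all 4 S+ libraries and in 1 S- library, so it entered nearly through S+ alone. limma gave a log2 fold change of 2.28 (SE 0.692, 95% interval 0.74 to 3.83, adjusted p = 0.195).

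All 7 members of the liver and plasma list were tested. The log2 fold change was positive for 6 and negative for 1, 3 had an unadjusted p below 0.05, among them fabp1b.1, which entered through S+ alone, and apoa4b.2, which nearly did, and none was called. The median was 1.31, beside -0.02 over all genes tested. Summed, the list stood at 251, 166, 301 and 79.2 CPM in S+ against 58.3, 103, 89.3 and 43.8 CPM in S-, with S+ 4 inside the range of S-. The mean was 199 ± 97.5 CPM in S+ and 73.5 ± 27.2 CPM in S- (SD, n = 4 each), and apobb.1 carried most of it. When any single library was left out, the median stayed between 0.78 (without S+ 3) and 1.77 (without S+ 4), and 3 or more of the 7 had an unadjusted p below 0.05. Without both S- 2 and S- 3 the median was 1.80, with 2 of the 7 at an unadjusted p below 0.05. The medians and counts of this list include fabp1b.1 and apoa4b.2 in every setting. They therefore cannot be read as results, nor can their range when libraries were left out.

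Of the other 4 members of the list, 3 were also lowest among the S+ libraries in S+ 4. fabp2, the fatty acid binding protein of the intestine, had 8.40, 5.52, 15.4 and 1.16 CPM in S+ against 1.37, 4.2, 3.05 and 1.22 CPM in S- (log2 fold change 1.31, adjusted p = 0.545). apoa1a, an apolipoprotein A-I gene of high-density lipoprotein, had 10.9, 11, 18.1 and 1.16 CPM in S+ against 3.01, 8.62, 7.88 and 3.06 CPM in S- (0.54, adjusted p = 0.778). In both, S+ 4 was below every S- library while the other S+ libraries were above all of them. apoa4b.1 had a log2 fold change of 0.67 and apoa1b of -0.16. Of the 4 liver markers looked up, apobb.1 with 3604 counts over all 8 libraries and apoa1b with 102 were members. fabp10a had 15 counts and the plasma transferrin gene tfa had 21. By library, apoa1b had 5, 11, 21 and 12 counts in S+ against 8, 29, 11 and 5 in S-. Those of fabp10a were 0, 1, 2 and 4 in S+ against 2, 5, 0 and 1 in S-. For tfa they were 0, 6, 5 and 0 in S+ against 4, 1, 3 and 2 in S-. The groups overlapped for apoa1b, fabp10a and tfa, so these markers did not share the height of apobb.1 in S+.

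Outside the lists, chia.2, a chitinase gene picked after its values were seen, had 23.2, 13.2, 27.5 and 8.74 CPM in S+ against 9.30, 11.1, 9.67 and 9.79 CPM in S- (log2 fold change 0.74, adjusted p = 0.428). S+ 4 was its lowest S+ library and lay below every S- library.

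**Figure D3:**
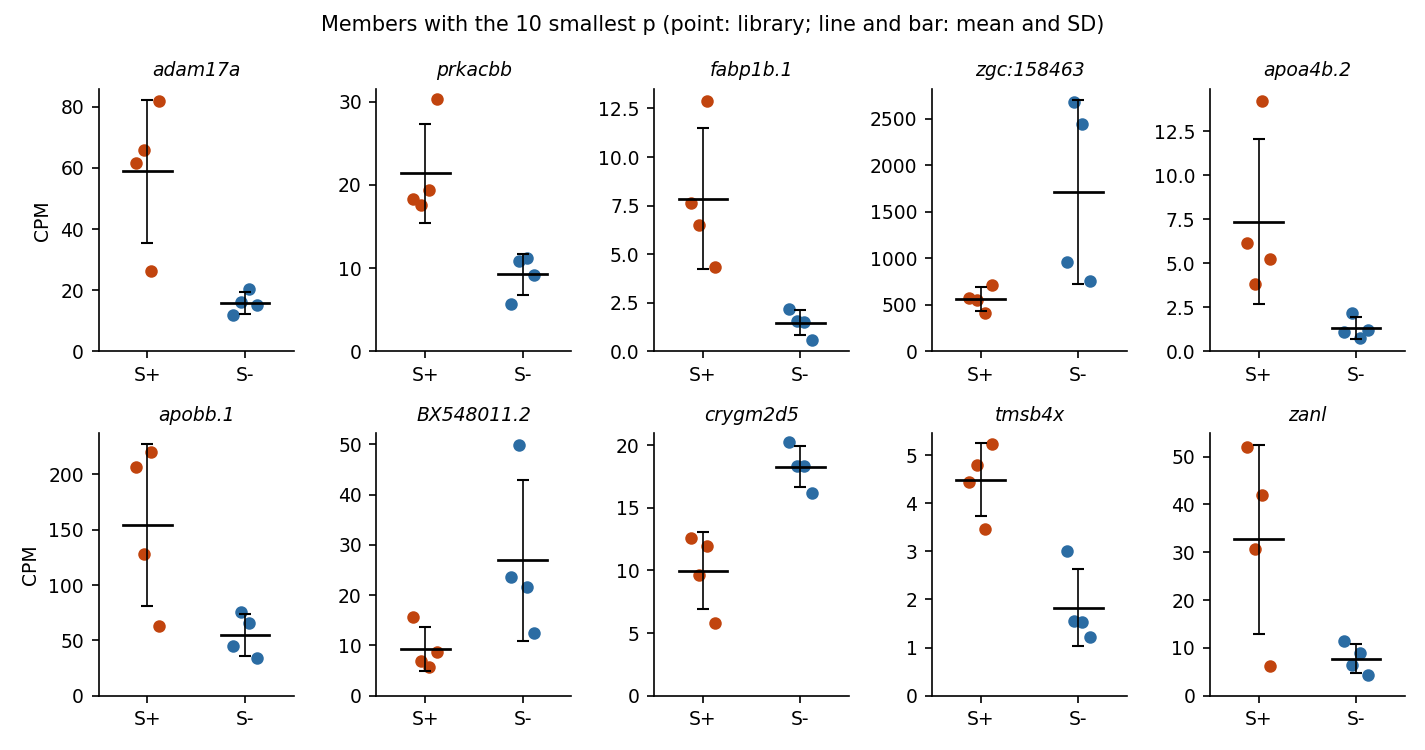
Points give the CPM of the 10 members with the smallest p in each library, S+ left of S-, with the mean and SD of each group (n = 4). adam17a lies at 26.4 to 81.8 CPM in S+ above 11.8 to 20.3 CPM in S-, while apobb.1 and zanl have an S+ library inside the range of S-.

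The dot plot of these members shows which groups were apart in every library. adam17a (ENSDARG00000043213) had the smallest p of all members. It encodes a membrane metalloprotease that sheds the outer part of cell surface proteins, tumour necrosis factor among them in mammals. It had 61.7, 65.8, 26.4 and 81.8 CPM in S+ against 11.8, 16.1, 20.3 and 15.3 CPM in S-. All S+ libraries were above all S- libraries, with S+ 3 nearest to them. This gave a log2 fold change of 1.75 (SE 0.393, 95% interval 0.87 to 2.63, adjusted p = 0.116). With single libraries left out it ran from 1.57 to 2.13. Of these fits, only that without S+ 3, at 2.13 (adjusted p = 0.00907 by limma), gave a call.

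prkacbb (ENSDARG00000059125), a catalytic subunit of the cAMP-dependent protein kinase, had 18.3, 17.5, 19.4 and 30.3 CPM in S+ against 5.74, 10.8, 11.2 and 9.18 CPM in S-. The groups did not overlap, and S+ 4 was the highest library. In the fit, the log2 fold change was 1.19 (SE 0.298, 95% interval 0.52 to 1.85, adjusted p = 0.160).

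tmsb4x (ENSDARG00000077777), thymosin beta 4, which binds actin monomers, had 4.44, 4.80, 3.46 and 5.24 CPM in S+ against 3.01, 1.55, 1.53 and 1.22 CPM in S-, on 18 to 20 counts in S+ and 4 to 11 counts in S-. In S- only 1 library reached 10 counts, so it too entered nearly through S+ alone. The groups did not overlap, and the log2 fold change was 1.27 (SE 0.414, adjusted p = 0.203). Its variance within groups was 0.932 times that of counting, so these counts cannot show a spread between crossings of the same group.

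zanl (ENSDARG00000056781), a zonadhesin-like gene whose mammalian relative is a sperm protein that binds the egg coat, had 52.1, 30.7, 41.9 and 6.12 CPM in S+ against 11.5, 6.41, 8.90 and 4.28 CPM in S-. S+ 4 lay inside the range of S- and the other S+ libraries were above it. limma gave a log2 fold change of 1.83 (SE 0.671, adjusted p = 0.276). With single libraries left out it ran from 1.49 to 2.46. Of these fits, only that without S+ 4, at 2.46 (adjusted p = 0.0331 by limma), gave a call.

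Apart from zgc:158463, the members with the smallest p that were lower in S+ were BX548011.2 and crygm2d5. BX548011.2 (ENSDARG00000111460), a clone-named gene with no role given, had 15.6, 6.96, 5.77 and 8.74 CPM in S+ against 23.5, 50, 21.6 and 12.5 CPM in S-. S- 2 was the highest library, and S+ 1 overlapped the S- range. The log2 fold change was -1.50 (SE 0.460, adjusted p = 0.195).

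Further clone-named genes were high in S- 2, either with S- 3 or in S- 2 alone. CT583728.24, highest in S- 2 and S- 3, had 5.68, 5.28, 2.69 and 7.57 CPM in S+ against 6.84, 39.4, 45.8 and 7.34 CPM in S- (log2 fold change -1.87, adjusted p = 0.323), and was named after its values were seen. AL935186.7 had 26.9, 17.3, 11.9 and 34.7 CPM in S+ against 19.7, 163, 29.8 and 14.1 CPM in S-, with 55.2% of its counts in S- 2 (log2 fold change -0.80, SE 0.717, adjusted p = 0.675). Without S- 2 and S- 3 its log2 fold change was 0.24.

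The 28 crystallin members, of which 27 were tested, held 4.88% of the member counts. Crystallins are the structural proteins of the lens fibre cells. In fishes the gamma M group, here 17 genes of the crygm2d series, is expanded. Summed, the crystallins stood at 186, 182, 179.7 and 172 CPM in S+ against 218, 169, 184 and 185 CPM in S-. The mean was 179.8 ± 6.11 CPM in S+ and 189 ± 20.7 CPM in S- (SD, n = 4 each), with overlap. The log2 fold change was positive for 11 and negative for 16, with a median of -0.05 beside -0.02 over all genes. The variance of a crystallin within groups was 1.97 times its counting expectation at the median, against 2.71 for the ribosomal proteins and 44.2 for the muscle proteins.

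Within the family, crygm2d5 (ENSDARG00000069792) had 12.6, 9.60, 11.9 and 5.82 CPM in S+ against 20.2, 18.4, 18.3 and 16.2 CPM in S-. Every S+ library was below every S- library, and the log2 fold change was -0.90 (SE 0.276, 95% interval -1.52 to -0.28, adjusted p = 0.195). It was the only crystallin with an unadjusted p below 0.05. crygmxl2, the highest of the family in mean CPM, had 10.9, 14.4, 11.7 and 23.6 CPM in S+ against 17.8, 19.0, 13.0 and 15.0 CPM in S- (log2 fold change -0.17, adjusted p = 0.824). crygm2d3, named after its values were seen, went the other way, with 5.43, 6.48, 5.00 and 8.15 CPM in S+ against 3.56, 3.98, 3.05 and 4.59 CPM in S- and no overlap (log2 fold change 0.68, adjusted p = 0.394). The summed crygm2d genes were at 93.7 ± 7.17 CPM in S+ and 94.3 ± 10.8 CPM in S- (SD, n = 4 each), so the opposite differences of single genes left no difference in their sum beyond its spread. The counting that divides shared reads among near-identical genes can move reads between them, and its part was not tested.

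**Figure D4:**
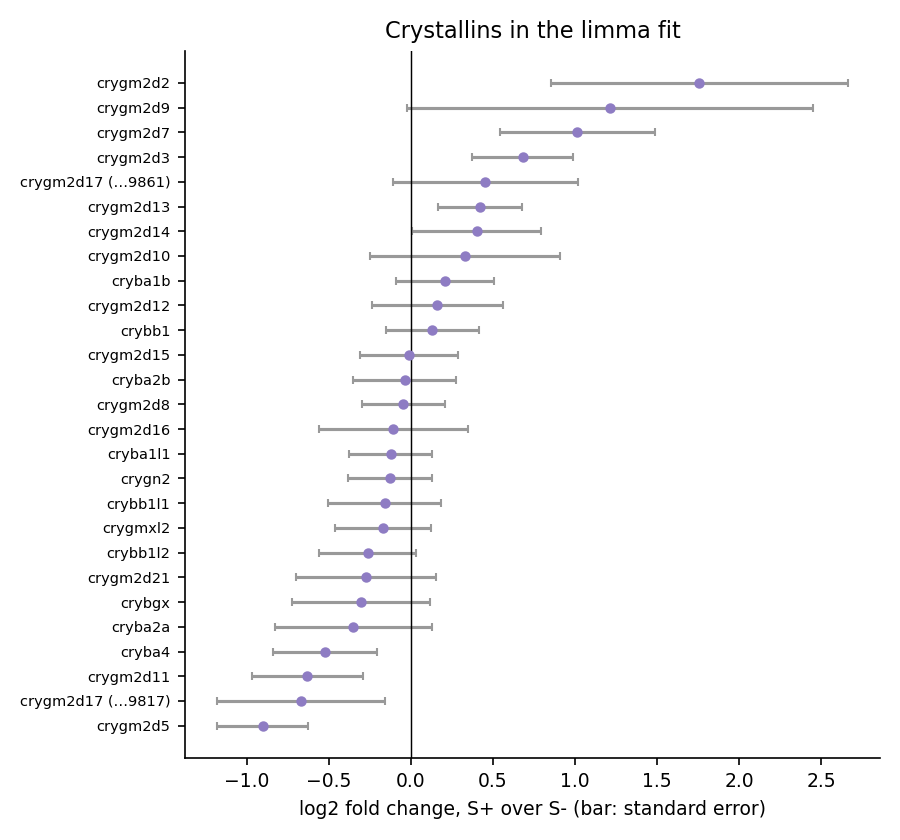
Points give the log2 fold change of S+ over S- for the 27 crystallin genes in the limma fit, with bars of 1 standard error, in order of value. They run from -0.90 (crygm2d5) to 1.76 (crygm2d2), 11 above 0 and 16 below, and none passed the threshold.

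The plot of single crystallins shows that genes of the same series stood at both ends. Those with the highest values, such as crygm2d2 at 1.76 (adjusted p = 0.447), rest on few counts, with 1.98, 7.20, 3.46 and 5.53 CPM in S+ against 3.83, 2.65, 0.763 and 0 CPM in S-.

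The ribosomal proteins were the other large list, with 28 members, 27 of them tested, and 13.9% of the member counts. They build the cytoplasmic ribosome in every cell. Summed, they stood at 467, 526, 646 and 496 CPM in S+ against 522, 443, 505 and 554 CPM in S-, a mean of 534 ± 78.6 CPM in S+ and 506 ± 46.6 CPM in S- (SD, n = 4 each), with overlap. The log2 fold change was positive for 11 and negative for 16, with a median of -0.03, and none had an unadjusted p below 0.05. The median stayed between -0.18 and 0.09 when any single library was left out, and was 0.26 without both S- 2 and S- 3.

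rpl13a, of the large subunit, was the best measured of them, with 107, 125, 134 and 135 CPM in S+ against 137, 117, 129 and 127 CPM in S-. Its log2 fold change was -0.03 (SE 0.145, 95% interval -0.35 to 0.30), the smallest standard error among the ribosomal proteins. rps8a, of the small subunit, varied far more, with 116, 191, 153 and 80.1 CPM in S+ against 131, 44.0, 74.8 and 159 CPM in S- (log2 fold change 0.55, SE 0.403, adjusted p = 0.581). Without S- 2 and S- 3, which had its lowest values, its log2 fold change was -0.20. rpl7a had 71.1, 67.0, 144 and 79.5 CPM in S+ against 86.4, 59.5, 112 and 106 CPM in S- (log2 fold change -0.01, SE 0.295). rpl23a had 60.5, 58.6, 79.1 and 81.0 CPM in S+ against 80.4, 55.7, 55.2 and 76.2 CPM in S- (log2 fold change 0.08, SE 0.207).

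Host genes of snoRNAs were common among the members. In RefSeq, 17 of the 188 protein coding members (9.04%) held a snoRNA gene inside their span, against 53 of 20549 other nuclear protein coding genes of the table (0.258%). None of the 188 held a miRNA gene, and members without a RefSeq match could not be looked up. Of the hosts, 11 were ribosomal protein genes, out of 28, and the other 6 were eif4a1a, hspa8, tpt1, naca, ncl and slc25a3b. rpl4 held the most with 7, rpl13a and rpl7a held 4 each, and rpl23a held 3 and rps8a 2. All 4 of the ribosomal protein genes with the highest CPM were hosts. This is a description of position in another assembly than the counts used. The members were taken for their counts, and the other genes are those that failed the count rule. The contrast of 9.04% with 0.258% therefore cannot be read as a result. Whether the reads of a host came from its exons or from the snoRNA was not tested.

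The 6 translation factors held 13.7% of the member counts, most of them in eef1b2 and eif4a1a. eef1b2, the exchange factor that recharges elongation factor 1 with GTP, was the member with the most counts after zgc:158463. It had 322, 369, 477 and 477 CPM in S+ against 386, 325, 333 and 452 CPM in S- (log2 fold change 0.13, SE 0.176, 95% interval -0.26 to 0.53). eif4a1a, an RNA helicase of initiation, had 81.2, 31.2, 105 and 87.4 CPM in S+ against 55.0, 77.4, 38.2 and 50.8 CPM in S- (0.37, SE 0.387). The groups overlapped for both. Summed, the list stood at 463, 455, 652 and 599 CPM in S+ against 482, 489, 433 and 534 CPM in S-, its log2 fold change was positive for 5 of 6 with a median of 0.14, and none had an unadjusted p below 0.05.

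The muscle proteins varied most between libraries. All 9 muscle members were tested, and their variance within groups was 44.2 times counting at the median. Summed, they stood at 37.8, 34.8, 25.4 and 107 CPM in S+ against 18.3, 403, 169.7 and 26.6 CPM in S-. S- 2 and S- 3 were the highest libraries, followed by S+ 4, and S- 1 was the lowest of all 8. The mean was 51.1 ± 37.3 CPM in S+ and 154 ± 179.8 CPM in S- (SD, n = 4 each). The log2 fold change was negative for 8 of 9 with a median of -0.74, and none had an unadjusted p below 0.05. The direction rested on S- 2: without it 5 were positive and 4 negative with a median of 0.06, and without both S- 2 and S- 3 the median was 1.12 with 8 positive. Without S- 1 the median was -1.67, and 2 had an unadjusted p below 0.05. Without S- 4 it was -1.33 and without S+ 4 -1.17.

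The same libraries stood out gene by gene. ttn.1, a titin gene for the molecular spring of the sarcomere, had 8.89, 8.16, 5.39 and 22.7 CPM in S+ against 5.20, 78.3, 38.4 and 3.06 CPM in S- (log2 fold change -0.72, SE 0.969, adjusted p = 0.762). ttn.2 had 9.38, 3.84, 4.23 and 22.1 CPM in S+ against 3.56, 76.7, 38.7 and 4.59 CPM in S- (-1.08, SE 1.02), and its log2 fold change was 0.79 without S- 2 and S- 3. myhz1.1, a fast myosin heavy chain, had 4.44, 3.36, 3.08 and 16.9 CPM in S+ against 0, 93.8, 22.9 and 6.73 CPM in S- (-0.51, SE 1.69). S- 2 held 66.0% of its counts, the largest share of a single library for any member. Without S- 2 and S- 3, the log2 fold change of ttn.1 was 1.12 and that of myhz1.1 was 2.59.

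myhz1.2, its neighbour in name, had 3.70, 7.20, 2.12 and 4.95 CPM in S+ against 0, 40.0, 9.16 and 0 CPM in S-. Its mean was 4.49 CPM in S+ and 12.3 CPM in S-, while its fitted log2 fold change was 0.86 (SE 1.46), since the fit works on log values and 2 S- libraries had no count. ckma, the muscle creatine kinase, had a log2 fold change of -1.56 (adjusted p = 0.398), the smallest p of the list.

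**Figure D5:**
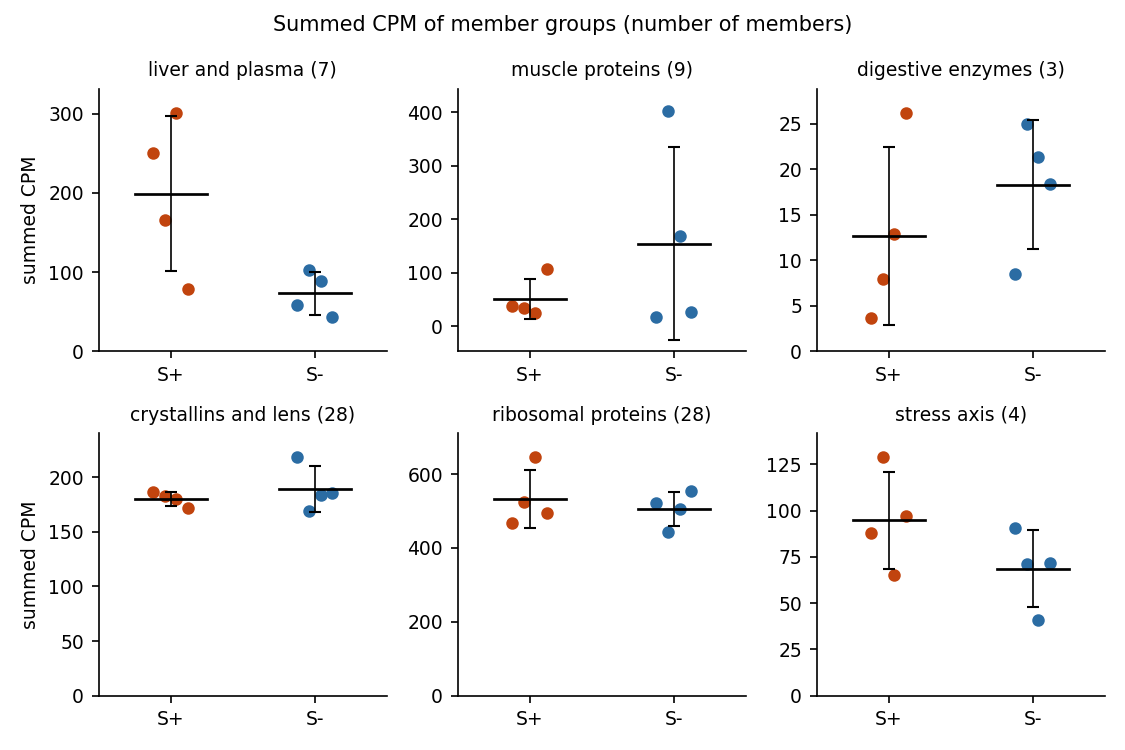
Points give the summed CPM of the members of 6 lists in each library, S+ left of S-, with the mean and SD of each group (n = 4). The muscle proteins spread from 18.3 to 403 CPM with S- 2 highest, the crystallins stay between 169 and 218 CPM, and the liver and plasma genes have S+ 1 to 3 above all S- libraries.

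The dot plot of list sums sets the steady lists beside those that move with single libraries. The 3 digestive enzymes summed to 3.70, 7.92, 12.9 and 26.2 CPM in S+ against 8.48, 25, 21.4 and 18.4 CPM in S-, with S+ 4 highest and S+ 1 lowest. prss59.2, a trypsin, had 2.47, 1.92, 3.27 and 10.8 CPM in S+ against 3.56, 11.7, 7.88 and 6.12 CPM in S- (log2 fold change -0.97, SE 0.540, adjusted p = 0.494). prss1, another trypsin, had 0.247, 2.16, 5.58 and 9.90 CPM in S+ against 1.37, 5.75, 7.88 and 5.81 CPM in S- (-0.80, SE 0.908). The third, the elastase cela1.6, was at -0.86, none of them passed, and the median of the 3 was -0.86. That median was -0.38 with 1 of 3 positive without S+ 1, -1.23 without S+ 4, -1.27 without S- 1 and -0.46 without both S- 2 and S- 3.

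The skin keratins, intermediate filaments of the epidermis, gave 5 members, with a median log2 fold change of 0.14 and 3 positive. krt4 had 12.3, 11.5, 6.93 and 16.9 CPM in S+ against 6.84, 17.9, 14.2 and 5.51 CPM in S- (0.14, SE 0.428). krt91 had 2.22, 1.44, 1.35 and 5.24 CPM in S+ against 3.28, 8.18, 5.85 and 3.37 CPM in S- (-1.25, adjusted p = 0.349), the only keratin with an unadjusted p below 0.05. At least 10 counts of krt91 were reached in 1 S+ library and in all 4 S- libraries, so it entered nearly through S- alone. The groups overlapped for krt4 and krt91. The single collagen, col1a1a, a chain of type I collagen of bone and skin, had 5.43, 5.28, 4.23 and 7.57 CPM in S+ against 1.64, 4.86, 3.31 and 4.59 CPM in S- (0.66, SE 0.395, adjusted p = 0.543).

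The list of the stress axis and glucocorticoid response had 4 members. The hypothalamus, pituitary and interrenal axis releases cortisol in fish, and cortisol acts through receptors that switch on genes such as fkbp5, tsc22d3 and pck1. All 4 log2 fold changes were positive, that of fkbp5 at only 0.01 (SE 0.376). The median was 0.53, beside -0.02 over all genes, and none of the 4 members had an unadjusted p below 0.05. Summed, they stood at 87.7, 128.9, 65.4 and 97.0 CPM in S+ against 90.8, 71.0, 40.7 and 71.9 CPM in S-, with overlap.

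nr1d2a, a nuclear receptor of the circadian clock, made up most of this sum. It had 77.0, 120.3, 46.7 and 87.7 CPM in S+ against 85.1, 61.0, 35.6 and 63.3 CPM in S- (log2 fold change 0.41, SE 0.339, adjusted p = 0.649). pck1, which starts gluconeogenesis from oxaloacetate, had 6.42, 2.64, 11.5 and 3.20 CPM in S+ against 2.73, 3.32, 1.78 and 1.22 CPM in S- (1.2, SE 0.620, adjusted p = 0.447). fkbp5, a chaperone partner of the glucocorticoid receptor, had 2.72, 2.88, 2.89 and 2.62 CPM in S+ against 2.46, 3.54, 1.78 and 3.67 CPM in S- (0.01, 95% interval -0.83 to 0.85). Its interval spans a wide range of differences in both directions. tsc22d3 was at 0.65 (SE 0.604, adjusted p = 0.683).

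The remaining lists were small. The 7 genes of energy metabolism had a median log2 fold change of -0.13 with 2 positive, among them slc25a5, an ATP carrier of mitochondria (0.04). The 3 chaperones were at 0.06 (hspa8), 0.08 (hsp90ab1) and 0.32 (hspb7, a small heat shock protein). Of the 2 histones, histh1l was at 0.61 and h2ax1 at -0.97 (SE 0.958), the second with no count in S+ 1 and a direction that turned with the tool. tuba8l4, a tubulin from the proliferation list, was at 0.47 (SE 0.488). None of these had an unadjusted p below 0.05. No gene of the globin, neuronal and photoreceptor lists was a member.

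The 103 members in no list included 90 that were tested, of which 11 (12.2%) were higher and 4 (4.44%) lower in S+ at an unadjusted p below 0.05, beside 7.22% and 5.22% of all genes tested. Their median log2 fold change was 0.21. Besides those described, the members at that level, which were named after their values were seen, were SIKE1, hdlbpa, fth1a, mob2b, LRFN2, zc3h11a and FP074874.1, higher in S+, and si:ch211-255g12.6, lower. Of the 11 that were higher, tmsb4x, mob2b and LRFN2 had at least 10 counts in all 4 S+ libraries and in 1 S- library. They entered nearly through S+ alone, so the 12.2% cannot be read as a result. hdlbpa, vigilin, an RNA binding protein, had 7.16, 4.56, 6.16 and 4.37 CPM in S+ against 1.91, 3.76, 3.82 and 1.84 CPM in S-, with no overlap (log2 fold change 0.95, adjusted p = 0.340). fth1a, a ferritin heavy chain that stores iron, had 4.94, 4.56, 6.35 and 7.86 CPM in S+ against 1.37, 3.54, 4.58 and 1.84 CPM in S-, with S+ 2 just under S- 3 (1.08, adjusted p = 0.323). si:dkey-3d18.5, which had no RefSeq match, was among the steadiest of the abundant members, with 107, 111, 105 and 85.3 CPM in S+ against 104.5, 92.2, 84.4 and 102 CPM in S- (0.10, SE 0.158, 95% interval -0.25 to 0.45).

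The 15 members outside the fit were those too low for its filter. Entry through 1 group only occurred for 5 members in S+ (angptl4, fabp1b.1, clp1, pleca and gpx4a) and for 1 in S- (cpne4a), so that their differences cannot be read as results. When the count rule itself served as the filter, all 207 members were tested among 670 genes and none was called. The smallest p among the 15 was then that of cpne4a, a copine, which had 7, 1, 2 and 3 counts in S+ against 20, 10, 38 and 12 in S- (log2 fold change -2.68, adjusted p = 0.190). cfl1, a cofilin that severs actin filaments, had 19, 10, 23 and 15 counts in S+ against 0, 10, 7 and 3 in S- (2.05, adjusted p = 0.317). It reached 10 counts in all 4 S+ libraries and in 1 S- library. Thus cfl1 entered nearly through S+ alone, and its difference cannot be read as a result either.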

How the data were processed

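Small RNA reads of 8 larval pools, 4 S+ and 4 S-, were trimmed by the authors with Trim Galore 0.6.6, mapped to GRCz11 with STAR 2.7.8a and quantified on Ensembl release 104 with RSEM 1.3.0. The authors deposited estimated counts per gene, without normalization, and a rounding to whole numbers was applied before the fits. The library paragraph of the methods describes a stranded mRNA preparation with rRNA removal and molecular identifiers, while the section speaks of small RNA, and it names no deduplication. Whether the counts are of reads or of single molecules is therefore not known. The counting expectation of a variance takes them as they stand. The standard errors and intervals of limma come from the spread between libraries. All value columns were matched to a sample by its label.

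From these counts, low genes were removed with filterByExpr of edgeR 4.0.16 (by group, at least 10 counts), which also supplied TMM factors. limma 3.58.1 with voom in R 4.3.3 compared S+ with S-, two-sided, with Benjamini-Hochberg adjustment over all 651 genes tested. limma with voom and the thresholds for a call were those in the methods of the study. The count filter, the TMM factors and the adjustment method are not named there. Error bounds are limma's 95% intervals. Alternatives were the quasi-likelihood test of edgeR, DESeq2 1.42.0 and others given in the closing section. The scripts were tested on simulated data. RefSeq of GRCz12tu served for names and for snoRNA genes inside a gene; its positions served to find these snoRNA genes, and none is printed.

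The members and lists were chosen with earlier results of these data known, so counts over them carry no independent support. Named members are the 10 with the smallest p, the 10 with the highest mean CPM, the 2 highest of each list, the 2 nearest each side of the count rule and the 3 with the largest share of counts in a single library. Others are said to be named after their values were seen, or illustrate a list. A named member of the energy metabolism list is not reported here.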

Additional observations from a re-analysis of the deposited data

Results flagged for a closer look

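In each group of 4 libraries, the highest or lowest value was compared with its neighbours by Dixon's ratio against its critical value at the 95% level, for 112 groups of values, of which 7 exceeded it. Chance alone gives about 1 in 20. In S+ 4 these were the summed muscle proteins (107 CPM, the other S+ libraries 25.4 to 37.8), myhz1.1 (16.9 CPM, the others 3.08 to 4.44), the trypsin prss59.2 (10.8 CPM, the others 1.92 to 3.27) and prkacbb (30.3 CPM, the others 17.5 to 19.4). In S+ 3 it was rpl7a (144 CPM, the others 67.0 to 79.5). In S- 2 they were AL935186.7 (163 CPM, the other S- libraries 14.1 to 29.8) and the summed histones (6.85 CPM, the others 4.58 to 4.92). Of the 7, 4 fell in S+ 4.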

How the results depend on the processing

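The count of members called was 0 under edgeR, limma-trend, library size alone, DESeq2 size factors, the summed nuclear counts as library size, the count rule as filter and no fold change minimum. DESeq2 called 9 (adam17a, fabp1b.1, apoa4b.2, apobb.1, prkacbb and zanl higher, zgc:158463, BX548011.2 and CT583728.24 lower). A fit of every gene with at least 1 count called 10, 6 higher and 4 lower, beside 0.431% of its 18338 genes. The replicate number as a block called 2, zanl (adjusted p = 0.0259) and apobb.1 (adjusted p = 0.0455), beside 1.38% of all genes. The labels do not say that a number marks a shared day or tank, and the samples were treated as unpaired. Deviations of libraries with the same number correlated at 0.156, -0.159, 0.248 and 0.029, and 2 of the 4 S+ libraries matched their own number best. Leaving out single libraries gave 0 to 1 calls, adam17a without S+ 3 and zanl without S+ 4.

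The median log2 fold change of the members, 0.03, ran from -0.04 (without S- 4) to 0.22 (without S- 2) with single libraries left out and was 0.14 with the summed nuclear counts as library size. It moved by more than 0.198, the SD of the library medians within groups, with S- 2 and S- 3 both left out, to 0.35, a setting chosen after seeing the data that called 0 members. The difference in the nuclear share of counts (S+ minus S-) was -0.0680 percentage points. Of counts that are not miRNA, the share was 26.9% ± 1.04 in S+ and 24.7% ± 2.86 in S- (SD, n = 4 each). On that denominator the difference was 2.20, and the groups overlapped. Of all counts, the difference ran from -0.145 to 0.0277 with single libraries left out. Without zgc:158463 the nuclear share was 0.608% ± 0.102 in S+ and 0.554% ± 0.147 in S- (SD, n = 4 each). The difference was then positive, and the groups overlapped. Of 684 values of 38 named members, 658 kept their side of the threshold with no counted reversal, 19 became calls and 7 reversed. Without S- 2 and S- 3, rps8a reversed to -0.20, ttn.2 to 0.79 and AL935186.7 to 0.24. h2ax1 reversed to 0.087 by edgeR, 0.097 by DESeq2 and 0.118 with the block, and ran from -1.47 to 0.224 with single libraries left out. The cause was not tested. A change of sign was counted as a reversal only where the value with all libraries lay more than 1 standard error from 0. Within the 658, 43 values, of 13 members, changed sign without being counted as reversed. They include ttn.1 at 1.12 and myhz1.1 at 2.59 without S- 2 and S- 3, and myhz1.2 at -1.47 by edgeR. Depth was a limit: 112 of the 207 members had a mean under 20 counts.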

Other observations

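The following nuclear genes were outside the count rule and were named after their values were seen. atp2a1, the calcium pump of fast muscle, had 4, 1, 4 and 24 counts in S+ against 0, 75, 39 and 5 in S-, and ckmb, a muscle creatine kinase, had 5, 7, 1 and 10 in S+ against 2, 72, 19 and 3 in S-, so that S- 2 was the highest library in both, as for the muscle members. lgals2b, a galectin gene, had 25, 15, 49 and 3 counts in S+ against 8, 6, 8 and 8 in S-, and the clone-named CABZ01079192.1 had 24, 22, 62 and 0 in S+ against 7, 6, 8 and 4 in S-, with S+ 4 the lowest library in both.

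Among the members, actb2, a cytoplasmic actin, had 34.8, 20.6, 35.4 and 18.6 CPM in S+ against 15.3, 26.8, 23.1 and 13.2 CPM in S- (log2 fold change 0.48, SE 0.324, adjusted p = 0.550 by limma), also named after its values were seen.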
